A study of Mus musculus with 19 samples.

Results

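Tshr, Chrm3, Tacr1, Adgrg6 and Rgs16 encode 4 G protein-coupled receptors (GPCRs) and 1 regulator of G protein signalling whose transcripts differed between tissues or sorting gates of lymphoid endothelium. They were taken as every probe set of the array table whose only gene symbol is 1 of these names, which gave 1 probe set for each gene and 5 of 19938 named genes in all. The genes were selected on their group means and differences over these same arrays, so their values are a description and carry no test.

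The study profiled RNA of sorted vascular endothelium of the inbred BALB/c mouse on 19 Affymetrix whole-transcript arrays. Every sample pooled males and females in equal parts, and the mice were adults of 6 to 8 weeks with no treatment or genetic change named. High endothelial cells (HEC), which line the venules where lymphocytes leave the blood, came from peripheral lymph nodes (4 arrays), mesenteric lymph nodes (4 arrays) and Peyer's patches of the gut wall (3 arrays). The mesenteric HEC were sorted through a pair of gates, with 2 arrays of cells positive for both MAdCAM1 and PNAd, called double-positive here, and 2 arrays of cells labelled MAdCAM1+, whose PNAd state is not given. Capillary endothelium came from peripheral nodes (3 arrays), mesenteric nodes (2 arrays) and Peyer's patches (3 arrays), and the gates of the other sorts are not given in the sources used here. The labels do not say that arrays of a group came from separate animals or sorts, so the spread and the p-values reflect only these samples, which may be technical replicates.

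Values are log2 signals that were centred for each probe set, so 0 is a baseline of each gene that is not stated, and a value says how an array stands against other arrays for that gene. They give no absolute level and no order between genes, and whether a transcript was above background cannot be read from them. In sorted bulk samples, fewer cells that express a gene and less RNA per cell cannot be told apart. The labelled cell types carried their markers: all 8 high endothelial markers (Madcam1, Glycam1, Chst4, Fut7, Gcnt1, Ackr1, Nr2f2 and Sele) were higher and all 8 capillary markers lower in HEC over the mean of the 3 tissues (limma, adjusted p under 0.05). In that comparison 33.9% of all genes were called. Of 8 pan-endothelial markers 0 were higher and 6 lower in HEC, with a list median of -0.52. Their mean value was -0.30 to 0.22 on HEC arrays, lowest in Peyer's patches, and 0.44 to 0.65 on capillary arrays. Whether purity had a part in this was not tested. Peripheral capillary arrays 1 and 2 stood toward HEC, with a mean high endothelial marker value of 1.07 and 0.94 against 0.06 on array 3. Array 2 also stood above arrays 1 and 3 in the mean of pericyte and smooth muscle markers (1.13 against 0.46 and 0.40), fibroblast markers (0.60 against 0.11 and 0.11), myeloid markers (0.77 against 0.26 and -0.03) and lymphatic endothelial markers (0.90 against 0.42 and 0.24). The part of these markers in the differences of peripheral nodes was not tested.

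G protein-coupled receptors pass signals from hormones, transmitters, peptides or matrix across the cell membrane by activating heterotrimeric G proteins. Gs raises cyclic AMP through adenylyl cyclase, and Gq activates phospholipase C, which releases calcium and activates protein kinase C. RGS proteins end the signal by speeding up GTP hydrolysis on the alpha subunit. In endothelium such receptors are known to set permeability, vessel tone and the release of nitric oxide.

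The bases just before the transcription start are shown for the 3 members that were higher in Peyer's patch than in peripheral HEC and in MAdCAM1+ than in double-positive mesenteric HEC with no overlap of arrays, so that the letters can be read beside the patterns. They come from RefSeq (assembly GRCm38.p6), run 5′ to 3′ on the strand of the gene and cover the 250 bases before the start, and capitals mark matches to the motifs searched on either strand. A promoter was found for 4 of the 5 members, and that of Tshr was not analysed here.
Adgrg6, chr10:14545037-14545286, minus strand: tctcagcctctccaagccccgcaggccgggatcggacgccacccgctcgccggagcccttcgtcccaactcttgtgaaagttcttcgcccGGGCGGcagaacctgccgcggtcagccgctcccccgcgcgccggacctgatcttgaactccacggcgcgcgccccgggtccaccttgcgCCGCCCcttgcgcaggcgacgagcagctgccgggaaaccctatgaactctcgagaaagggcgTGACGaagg
Rgs16, chr1:153740103-153740352, plus strand: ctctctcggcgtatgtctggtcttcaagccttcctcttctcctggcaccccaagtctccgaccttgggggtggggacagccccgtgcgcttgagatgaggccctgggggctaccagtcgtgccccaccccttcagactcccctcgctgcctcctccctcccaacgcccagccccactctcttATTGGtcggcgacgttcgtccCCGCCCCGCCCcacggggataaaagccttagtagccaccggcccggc
Tacr1, chr6:82402225-82402474, plus strand: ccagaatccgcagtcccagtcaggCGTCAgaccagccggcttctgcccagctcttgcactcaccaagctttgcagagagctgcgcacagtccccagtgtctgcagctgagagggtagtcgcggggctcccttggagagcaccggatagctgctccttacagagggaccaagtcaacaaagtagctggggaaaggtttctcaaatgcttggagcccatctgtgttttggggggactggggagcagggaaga

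The GC box GGGCGG occurred in the Adgrg6 window at -160 to -155 and, on the opposite strand, at -71 to -66, counted back from the start. In the Rgs16 window the GC box lay on the opposite strand at -47 to -42 and at -42 to -37, a pair that overlaps by 1 base, beside an inverted CCAAT at -68 to -64. The short cyclic AMP response element TGACG lay at -9 to -5 in Adgrg6 and, on the opposite strand, at -226 to -222 in Tacr1. These letters are common: of 32851 promoters of the same length, 32.7% held GGGCGG, 33.9% CCAAT and 17.8% TGACG on either strand. None of the 4 windows held TATAAA (12.4% of promoters), TGACGTCA (1.55%), TGANTCA (6.75%), CCGGAA (12.03%), AGGTCA (14.02%), the NF-kB motif (0.14%) or CACGTG (6.02%), and the Chrm3 window, chr13:10360804-10361053 on the minus strand, held none of the 10 motifs. The Adgrg6 window was the richest in CpG of the 4, with 32 CpG and 69.6% GC, and 95.4% of promoters had fewer CpG. The Rgs16 window had 17 CpG and 66.4% GC, that of Chrm3 10 and 61.2%, and that of Tacr1 7 and 58.8%.

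**Figure D1:**
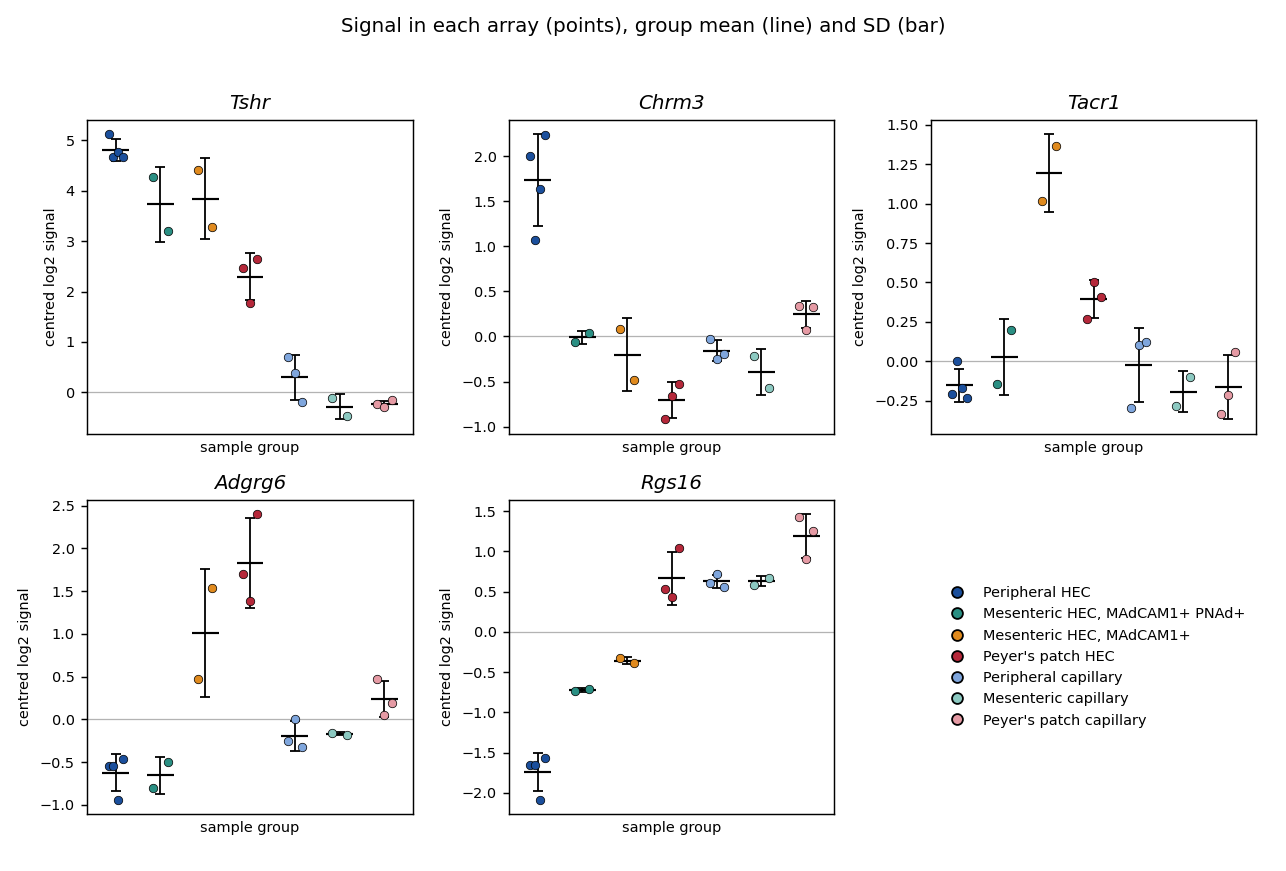
Centred log2 signal of the 5 members (1 panel each, vertical axis) on every array of the 7 groups (points), with the group mean (line) and SD (bar). Tshr falls from 4.81 in peripheral to 2.29 in Peyer's patch HEC and lies near 0 in capillary cells, Chrm3 stands out in peripheral HEC, Tacr1 in the mesenteric MAdCAM1+ gate, Adgrg6 in that gate and Peyer's patch HEC, and Rgs16 is lowest in peripheral HEC.

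Tshr, the receptor of thyroid-stimulating hormone, signals chiefly through Gs and is best known from the thyroid. It was higher in HEC than in capillary cells of all 3 tissues, and within HEC it stepped down from peripheral nodes to mesenteric nodes to Peyer's patches. The 4 peripheral HEC arrays read 5.13, 4.67, 4.77 and 4.67 (mean 4.81 ± 0.22, SD, n = 4). The double-positive mesenteric arrays read 4.26 and 3.21, and the MAdCAM1+ arrays 4.41 and 3.27. The ranges of these gates overlapped, with the lowest array in one gate and the highest in the other, while every mesenteric array lay below every peripheral one.

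Peyer's patch HEC arrays read 2.48, 1.76 and 2.64 for Tshr (2.29 ± 0.47, n = 3), below every mesenteric HEC array and above every capillary array. Peripheral capillary arrays read 0.70, 0.38 and -0.19, mesenteric ones -0.11 and -0.47, and Peyer's patch ones -0.24, -0.30 and -0.16. The 3 capillary groups overlapped, so no order among them exceeds their spread. HEC stood above capillary cells by 4.52 ± 0.29 log2 (± SE of the model, 22.9-fold) for peripheral nodes, by 4.08 ± 0.33 (16.9-fold) for mesenteric nodes and by 2.53 ± 0.31 (5.76-fold) for Peyer's patches. In these comparisons 24.6%, 15.2% and 19.5% of all genes were called by limma at an adjusted p under 0.05, and nothing is read from them for the members, which were chosen on the same arrays. Tshr was lower in Peyer's patch than in peripheral HEC by 5.73-fold (-2.52 ± 0.29) and lower in mesenteric than in peripheral HEC by 2.03-fold (-1.02 ± 0.27). Without peripheral capillary arrays 1 and 2, the arrays nearest to HEC, the peripheral difference was 5.01.

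Other genes of the glycoprotein hormone system and of the related leucine-rich repeat receptors did not share this pattern. Of 12 measured, 0 were higher and 3 lower in HEC over the mean of 3 tissues, where 33.9% of all genes were called. The median difference of the list was -0.07 and that of all genes -0.01. Lgr4, a receptor of R-spondins, was lower in HEC by -1.05 ± 0.08 (limma, adjusted p = 5.15e-09) and lower in mesenteric than in peripheral HEC by -0.72 ± 0.11 (adjusted p = 0.00137). The small differences of Gphb5 (-0.20 ± 0.07, adjusted p = 0.0274) and Tshb (-0.17 ± 0.06, adjusted p = 0.0246), subunits of thyroid-stimulating hormones, made up the rest. Only 1 gene of the list was called without mesenteric capillary array 1 or without peripheral capillary array 2. Fshr, the receptor of follicle-stimulating hormone, differed by -0.02 ± 0.06 (adjusted p = 0.846), and Cga, the shared alpha subunit, by -0.09 ± 0.05 (adjusted p = 0.204). In Peyer's patch against peripheral HEC, 0 of the 12 genes were called against 6.65% of all genes, and without Peyer's patch HEC array 3 the count was 4.

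Chrm3 encodes the M3 muscarinic acetylcholine receptor, which couples to Gq and is known in endothelium for acetylcholine-driven release of nitric oxide. It was high in peripheral HEC alone among the 7 groups. The 4 peripheral HEC arrays read 2.00, 1.07, 1.64 and 2.24 (1.74 ± 0.51, n = 4). The lowest of them lay above every array of the other groups, whose highest was a Peyer's patch capillary array at 0.34.

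Mesenteric HEC stood near their baseline for Chrm3, at -0.06 and 0.04 in the double-positive gate and 0.08 and -0.49 in the MAdCAM1+ gate. Peyer's patch HEC were low, at -0.92, -0.66 and -0.52 (-0.70 ± 0.20, n = 3), and did not overlap Peyer's patch capillary cells at 0.34, 0.07 and 0.33. Peripheral capillary arrays (-0.02, -0.25 and -0.20) lay between these groups, while of the mesenteric ones (-0.21 and -0.57) the second lay within the range of Peyer's patch HEC. HEC thus stood 3.71-fold above capillary cells in peripheral nodes (1.89 ± 0.21) and 1.93-fold below them in Peyer's patches (-0.95 ± 0.22). In mesenteric nodes the difference was 0.29 ± 0.24, with overlapping arrays, and it rested on single arrays: it was 0.47 and 0.11 without mesenteric capillary arrays 1 and 2, and 0.14 without MAdCAM1+ array 3. From peripheral HEC, those of Peyer's patches differed by -2.44 ± 0.21, or 5.42-fold, and mesenteric HEC by -1.84 ± 0.19, or 3.59-fold.

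The other muscarinic receptors were measured on the same arrays. Chrm2, which couples to Gi, was lower in HEC by -2.09 ± 0.14 over the mean of tissues (limma, adjusted p = 2.35e-09), and its Peyer's patch capillary arrays read 3.21, 3.93 and 3.00 against -0.38 to 0.27 on all HEC arrays. Between Peyer's patch and peripheral HEC, Chrm1 differed by 0.25 ± 0.13 (adjusted p = 0.239), Chrm4 by 0.34 ± 0.11 (adjusted p = 0.0861) and Chrm5 by 0.19 ± 0.10 (adjusted p = 0.274). Without Peyer's patch HEC array 3 each of these 3 receptors passed the test, in a fit that called 5300 of all genes. Chat, which makes acetylcholine, differed by 0.18 ± 0.09 (adjusted p = 0.21), and it too passed without that array.

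Of the enzymes that break down acetylcholine, Bche (butyrylcholinesterase) was higher in HEC than in capillary cells by 1.00 ± 0.08 (limma, adjusted p = 2.65e-08). Its peripheral HEC arrays ranged from 1.19 to 1.75, mesenteric HEC 0.34 to 1.10 and Peyer's patch HEC 0.00, -0.20 and 0.02, so the tissues stood in the order of Tshr. Bche was lower than in peripheral HEC by -1.54 ± 0.13 in Peyer's patch HEC (adjusted p = 9.12e-07) and by -0.81 ± 0.12 in mesenteric HEC (adjusted p = 0.00097). Ache, the synaptic cholinesterase, was higher in Peyer's patch than in peripheral HEC by 0.56 ± 0.14 (adjusted p = 0.0268), a call that was lost without peripheral HEC array 1, 2 or 4, or Peyer's patch HEC array 1 or 2. Of the 12 genes of the list, 1 was higher and 1 lower in Peyer's patch HEC against 6.65% of all genes called. Without Peyer's patch HEC array 3, 8 were called, and 5300 of all genes. The list median was 0.19 and that of all genes 0.03.

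**Figure D2:**
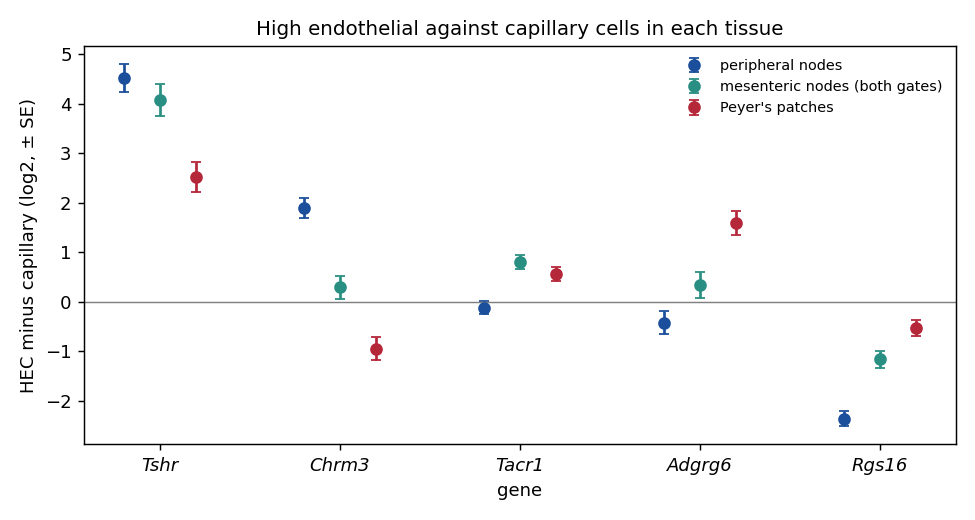
Difference between HEC and capillary cells (vertical axis, log2, with the SE of the model) for each member by tissue, with the mean of both gates for mesenteric nodes. Tshr lies above 0 in all 3 tissues and Rgs16 below it, while Chrm3 goes from 1.89 in peripheral nodes to -0.95 in Peyer's patches and Adgrg6 from -0.43 to 1.59.

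Tacr1 encodes the NK1 receptor of substance P, a Gq-coupled receptor known for making venules leaky in inflammation. It was highest in the mesenteric cells sorted as MAdCAM1+, at 1.02 and 1.37 (1.19 ± 0.25, n = 2), above every array of the other groups. Double-positive cells of the same nodes read -0.14 and 0.20. The gates differed by -1.17 ± 0.17, double-positive minus MAdCAM1+, or 2.25-fold.

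Next for Tacr1 came Peyer's patch HEC, at 0.27, 0.51 and 0.41 (0.39 ± 0.12, n = 3), above all remaining arrays. Peripheral HEC read -0.21, 0.00, -0.17 and -0.23. The 8 capillary arrays lay between -0.34 and 0.12, and peripheral HEC, double-positive HEC and the 3 capillary groups overlapped. HEC minus capillary cells gave -0.13 ± 0.13 for peripheral nodes, 0.80 ± 0.15 for mesenteric nodes, where it is the mean of unlike gates, and 0.56 ± 0.14 for Peyer's patches. The peripheral value became -0.26, -0.07 and -0.06 without peripheral capillary arrays 1, 2 and 3 in turn. All these differences are within 2.25-fold, and Tacr1 had the narrowest range of the 5 members.

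The ligands and the other receptors of the tachykinin system did not pass the test between Peyer's patch and peripheral HEC. Tacr2 differed by 0.08 ± 0.11 (limma, adjusted p = 0.632) and Tacr3 by 0.24 ± 0.10 (adjusted p = 0.143). Tac1, the gene of substance P, differed by 0.04 ± 0.07 (adjusted p = 0.778), and Tac2 and Tac4 by 0.08 each (adjusted p = 0.658 and 0.651). Of the 4 peptidases of the list, which can cleave substance P or related peptides, Mme and Ace passed it, while Ece1 (-0.31 ± 0.12, adjusted p = 0.124) and Dpp4 (0.00 ± 0.21, adjusted p = 0.994) did not. Mme, neprilysin, read 1.52, 1.76, 1.92 and 2.05 on the peripheral HEC arrays and at most 0.94 elsewhere. It was lower by -1.92 ± 0.23 in Peyer's patch HEC (adjusted p = 3.12e-05) and by -2.03 ± 0.21 in mesenteric HEC (adjusted p = 1.67e-05) than in peripheral HEC. Ace, the angiotensin-converting enzyme, was lower by -0.83 ± 0.09 (adjusted p = 8.37e-06) and -0.44 ± 0.08 (adjusted p = 0.00428), the latter no longer called when the arrays were quantile-normalised again (adjusted p = 0.0648). Of 9 measured genes, 0 were higher and 2 lower than in peripheral HEC in each of these tissues, against 6.65% of all genes called for Peyer's patches and 2.69% for mesenteric nodes.

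Adgrg6, also called Gpr126, is an adhesion GPCR that binds collagen IV, a laminin and the prion protein, raises cyclic AMP and is known for its role in myelination by Schwann cells. It was highest in Peyer's patch HEC, at 1.71, 1.38 and 2.40 (1.83 ± 0.52, n = 3). The mesenteric MAdCAM1+ arrays followed at 0.48 and 1.54, and the second of these lay within the Peyer's patch range. Double-positive mesenteric arrays (-0.81 and -0.50) and peripheral HEC arrays (-0.54, -0.55, -0.94 and -0.46) overlapped and lay below every capillary array.

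For Adgrg6, peripheral capillary arrays read -0.26, 0.00 and -0.33, mesenteric ones -0.16 and -0.18, and those of Peyer's patches 0.47, 0.05 and 0.19. The highest of them, 0.47, reached the lower MAdCAM1+ array, 0.48. HEC differed from capillary cells by 1.59 ± 0.25 in Peyer's patches (3.01-fold), by 0.35 ± 0.26 in mesenteric nodes with overlapping arrays, and by -0.43 ± 0.23 in peripheral nodes. The mesenteric value was 0.61 without MAdCAM1+ array 3 and 0.08 without MAdCAM1+ array 4. Peyer's patch HEC stood 5.47-fold above peripheral HEC (2.45 ± 0.23). The gates of mesenteric HEC differed by -1.66 ± 0.30, double-positive minus MAdCAM1+, or 3.16-fold, close to the 1.65 ± 0.23 by which Peyer's patch HEC stood above the mean of the mesenteric gates. In Peyer's patch against mesenteric HEC 1.2% of all genes were called. Set against the separate gates, double-positive cells differed from peripheral HEC by -0.03, and Peyer's patch HEC from MAdCAM1+ cells by 0.82.

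Markers of intestinal epithelium moved with the Peyer's patch groups, and so beside Adgrg6 and every other difference of Peyer's patch from peripheral HEC. Of 8 measured, 7 were higher in Peyer's patch than in peripheral HEC, where 6.65% of all genes were called. Among the 7 were Epcam (0.98 ± 0.11, limma adjusted p = 1.4e-05) and Krt19 (1.08 ± 0.18, adjusted p = 0.00107), while Fabp2 was not called (adjusted p = 0.456). The mean value of the 8 markers was 0.72, 0.97 and 0.47 on Peyer's patch HEC arrays 1 to 3, 0.17 to 1.32 on Peyer's patch capillary arrays, and -0.26 to 0.11 on all other arrays. Adgrg6 was highest on array 3, where these markers were lowest of the 3. Against the same 6.65% of all genes, 2 of 6 Schwann and enteric glial markers were higher, Erbb3 by 0.45 ± 0.09 (adjusted p = 0.0033) and Ncam1 by 0.30 ± 0.08 (adjusted p = 0.0337), while Sox10 was not called (adjusted p = 0.324). Their mean value was -0.13 to 0.22 in Peyer's patch and -0.27 to -0.08 in peripheral HEC. T cell markers were lower in 3 of 6 and B cell markers in 2 of 7, again against 6.65% of all genes. Over the mean of tissues, where 33.9% of all genes were called, 6 of 7 B cell markers were higher in HEC than in capillary cells. Their mean values were 0.23 to 0.77 on HEC and -0.16 to 0.17 on capillary arrays. The part of these markers in the members' differences was not tested.

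Of 10 measured genes of known Adgrg6 ligands, 1 was higher, 5 were lower and 4 were not called in HEC against capillary cells over the mean of tissues, against 33.9% of all genes called. Col4a1 (-1.59 ± 0.10, limma adjusted p = 4.48e-10) and Col4a2 (-1.73 ± 0.10, adjusted p = 4.13e-10), the main chains of collagen IV, were lower, and Prnp, the prion protein gene, was higher by 0.51 ± 0.08 (adjusted p = 9.97e-05). In Peyer's patches, however, Prnp overlapped, at -0.02, -0.21 and 0.42 on HEC and 0.09, 0.01 and 0.05 on capillary arrays. Lamb1, a chain of that laminin, was lower in HEC by -2.33 ± 0.14 (adjusted p = 3.99e-10). Its peripheral HEC arrays read -1.80 to -1.37, mesenteric HEC -1.42 to -0.36, and Peyer's patch HEC 0.00, 0.11 and 0.00. Lamb1 was thus higher in Peyer's patch than in peripheral HEC by 1.64 ± 0.23 (adjusted p = 0.000172). Lamc1, the gamma chain of the same laminin, was lower there by -0.57 ± 0.16 (adjusted p = 0.0454), a call lost when most single arrays were left out. Lamb1 was thus the only called gene in 11 of these fits. Without Peyer's patch HEC array 3, 5 genes of the list were called, and 5300 of all genes.

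Adhesion GPCRs other than Adgrg6 followed several patterns. Of 27 measured, 3 were higher and 8 lower in HEC over the mean of tissues, against 33.9% of all genes called, led by Adgre5 (CD97) at -3.08 ± 0.08 (limma, adjusted p = 3.71e-15) and Celsr1, a planar polarity cadherin, at 1.43 ± 0.06 (adjusted p = 9.9e-12). In Peyer's patch against peripheral HEC 2 were higher and 3 lower, 5 of 27 where 6.65% of all genes were called. Without Peyer's patch HEC array 3, 8 were called, and 5300 of all genes. Adgrl4 (ELTD1), an endothelial receptor of angiogenesis, was lower by -1.06 ± 0.13 (adjusted p = 3.86e-05), with peripheral HEC arrays at 0.00 to 0.26 and Peyer's patch arrays at -1.10, -1.14 and -0.51. It was also lower in mesenteric HEC, by -0.89 ± 0.12 (adjusted p = 0.00022). Adgrl2, a latrophilin, was lower by -0.57 ± 0.11 (adjusted p = 0.00257) and Adgrg7 was higher by 0.68 ± 0.11 (adjusted p = 0.00109). Adgrg7 read 0.55, 0.73 and 0.52 on Peyer's patch HEC and 0.07, 0.35 and 0.59 on Peyer's patch capillary arrays, so these groups overlapped. Within each group its arrays stood in the order of their intestinal epithelial marker means (0.72, 0.97 and 0.47 on HEC, 0.17, 0.85 and 1.32 on capillary arrays). The part of these markers in the Adgrg7 difference was not tested. Adgre5 was lower by -0.94 ± 0.12 (adjusted p = 9.37e-05), but by -0.32 with no call after a second quantile normalization (adjusted p = 0.0822).

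**Figure D3:**
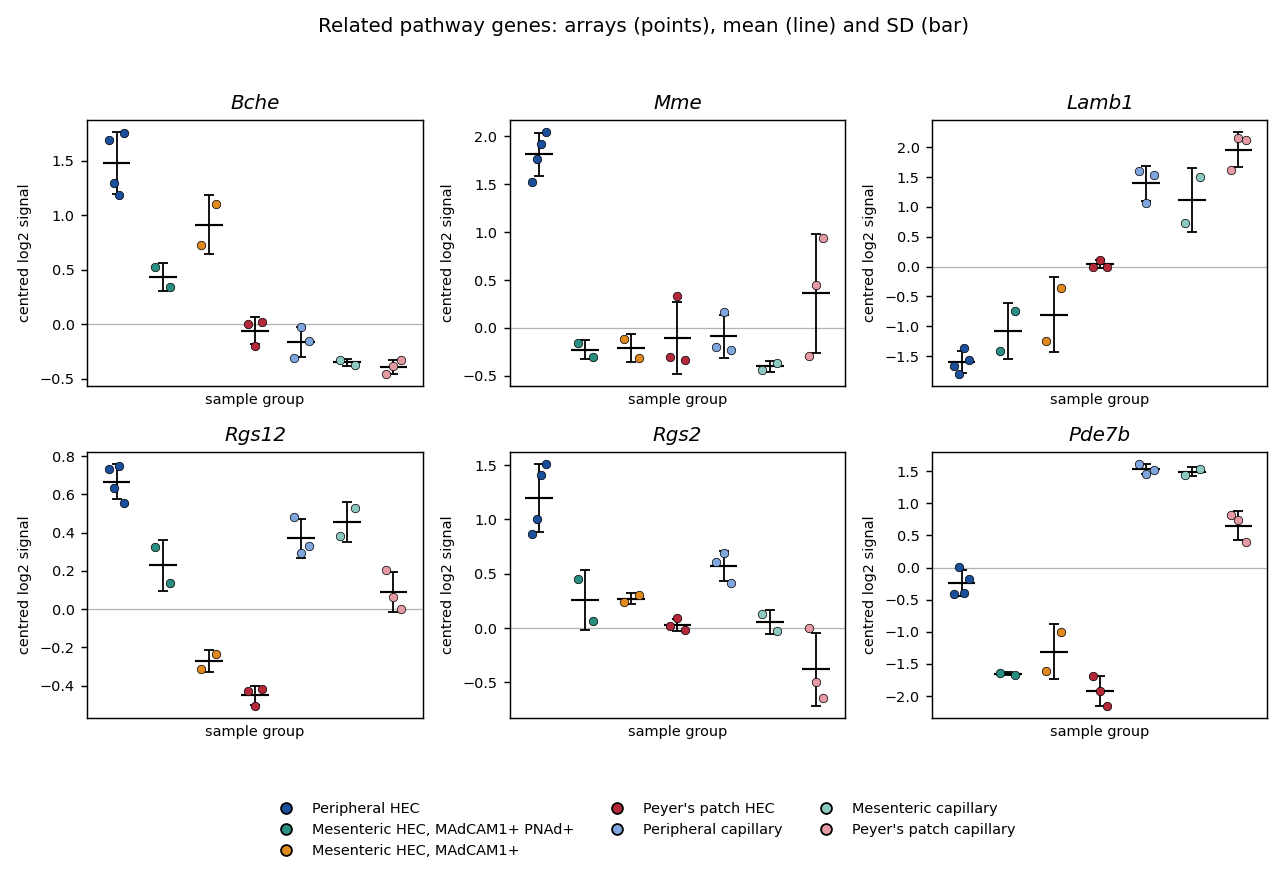
Centred log2 signal (vertical axis) of 6 genes of the same pathways on every array of the 7 groups (points), with mean (line) and SD (bar). Bche, Mme and Rgs2 are highest in peripheral HEC, Lamb1 rises from peripheral to Peyer's patch HEC below its capillary values, Rgs12 is lowest in MAdCAM1+ and Peyer's patch HEC, and Pde7b is lower in mesenteric and Peyer's patch HEC than in peripheral HEC.

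Rgs16 is a small RGS protein of the R4 family that shortens Gi and Gq signals. It was lowest in peripheral HEC and rose over the HEC groups toward capillary values. Peripheral HEC arrays read -1.66, -1.66, -2.08 and -1.57 (-1.74 ± 0.23, n = 4). Double-positive mesenteric arrays read -0.74 and -0.71, MAdCAM1+ arrays -0.32 and -0.39, and Peyer's patch HEC arrays 0.53, 0.43 and 1.04 (0.67 ± 0.33, n = 3). No neighbouring groups in this order overlapped, although the mesenteric groups hold only 2 arrays each.

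For Rgs16, peripheral capillary arrays read 0.61, 0.71 and 0.56, mesenteric ones 0.58 and 0.67, and those of Peyer's patches 1.43, 0.90 and 1.25. All 3 capillary groups overlapped with Peyer's patch HEC. HEC stood below capillary cells by -2.37 ± 0.15 for peripheral nodes (5.16-fold), by -1.17 ± 0.17 for mesenteric nodes (2.25-fold) and by -0.53 ± 0.16 for Peyer's patches (1.44-fold), the last with overlapping arrays. Peyer's patch HEC stood 5.30-fold above peripheral HEC (2.41 ± 0.15). Mesenteric HEC stood 2.30-fold above peripheral HEC (1.20 ± 0.14), and the gates differed by -0.37 ± 0.20.

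Most of the other RGS genes called within HEC went the opposite way to Rgs16, which was also the way of most called genes of any kind. Of 19 measured, 1 was higher and 3 lower in Peyer's patch than in peripheral HEC, against 431 higher and 895 lower among all genes (6.65% called). The list median was 0.08 and that of all genes 0.03. Without Peyer's patch HEC array 3, 9 were called, and 5300 of all genes. Rgs12, a large RGS protein that acts on Gi, was lower by -1.12 ± 0.08 (limma, adjusted p = 1.88e-07). Its arrays read 0.73, 0.63, 0.75 and 0.55 in peripheral HEC, 0.32 and 0.13 in double-positive, -0.31 and -0.23 in MAdCAM1+ and -0.43, -0.51 and -0.41 in Peyer's patch HEC, so that no 2 neighbouring groups overlapped. The gate difference of Rgs12, 0.50 ± 0.11, did not pass (adjusted p = 0.338).

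Rgs2, which prefers Gq, was lower than in peripheral HEC by -1.16 ± 0.16 in Peyer's patch HEC (limma, adjusted p = 0.000194) and by -0.93 ± 0.15 in mesenteric HEC (adjusted p = 0.00164). Rgs3 was lower in Peyer's patch HEC by -0.34 ± 0.08 (adjusted p = 0.0109), a call lost without Peyer's patch HEC array 1. Rgs9, best known from photoreceptors, was higher by 0.47 ± 0.09 (adjusted p = 0.00417). Against capillary cells over the mean of tissues, 2 of 19 RGS genes were higher and 4 lower, a share close to the 33.9% of all genes called, with Rgs5 (-2.71 ± 0.14, adjusted p = 5.33e-11) and Rgs4 (-1.04 ± 0.14, adjusted p = 1.53e-05) lowest and Rgs19 higher (0.68 ± 0.08, adjusted p = 1.54e-06). Rgs5 is also 1 of the 10 markers of pericytes and smooth muscle used here, of which 9 were lower and 1 higher in HEC. The mean of the 10, Rgs5 included, was -0.92 to -0.46 on HEC arrays and -0.12 to 1.13 on capillary arrays. The part of the other markers in the Rgs5 difference was not tested.

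The 11 pathway lists hold ligands, receptors, peptidases and RGS proteins as well as genes downstream of the receptors. Over these lists 234 of the 258 genes were measured, and the others were not analysed here. In HEC against capillary cells 27 of the 234 were higher and 75 lower, against 33.9% of all genes called in either direction. In Peyer's patch against peripheral HEC 10 were higher and 21 lower, 31 of 234 where 6.65% of all genes were called. That count is not stable: it fell to 20, 20 and 19 without peripheral HEC arrays 2, 3 and 4 and to 16 and 19 without Peyer's patch HEC arrays 1 and 2, and it rose to 69 without Peyer's patch HEC array 3. The count of all genes moved the same way, to 858 without peripheral HEC array 4 and to 712, 790 and 5300 without Peyer's patch HEC arrays 1, 2 and 3. The rise to 69 is thus not particular to the pathways. In mesenteric against peripheral HEC 1 was higher and 13 lower, against 2.69% of all genes. Among all genes 3588 were called higher and 3163 lower in HEC than in capillary cells. Against peripheral HEC 431 were higher and 895 lower in Peyer's patch HEC, and 144 higher and 393 lower in mesenteric HEC. The median difference of the 234 genes was -0.08, 0.05 and 0.04 in these 3 comparisons, against -0.01, 0.03 and 0.03 for all genes. In 23 of the 234 the step from capillary cells to HEC was itself unlike in Peyer's patches and peripheral nodes (limma interaction, 8 higher and 15 lower in Peyer's patches), against 4.05% of all genes.

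Among genes of cyclic AMP synthesis, breakdown and effect, 2 of 34 were higher and 13 lower in HEC, against 33.9% of all genes called. Pde7b, a phosphodiesterase that degrades cyclic AMP, was lower by -2.44 ± 0.09 (limma, adjusted p = 8.72e-13), the anchoring protein Akap12 by -1.84 ± 0.08 (adjusted p = 3.75e-12) and Rapgef3 (Epac1), an exchange factor activated by cyclic AMP, by -1.22 ± 0.07 (adjusted p = 3.33e-10). Pde7b was lower again in Peyer's patch HEC (-1.68 ± 0.15, adjusted p = 1.19e-06) and mesenteric HEC (-1.24 ± 0.14, adjusted p = 3.67e-05) than in peripheral HEC. Pde3b, another phosphodiesterase, was lower by -0.57 ± 0.10 (adjusted p = 0.00238) and -0.49 ± 0.10 (adjusted p = 0.00787). The count of this list between Peyer's patch and peripheral HEC, 1 higher and 4 lower against 6.65% of all genes called, fell to 2 genes without peripheral HEC array 2, 3 or 4 or Peyer's patch HEC array 1 or 2. It rose to 9 without Peyer's patch HEC array 3, where 5300 of all genes were called. In mesenteric against peripheral HEC 2 genes were called, against 2.69% of all genes, and 4 without Peyer's patch capillary array 3.

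Of 29 genes of phospholipase C and calcium signalling, 8 were higher and 12 lower in HEC, against 33.9% of all genes called, with Plcb1, a Gq effector, at -2.19 ± 0.08 (limma, adjusted p = 1.04e-12). In Peyer's patch against peripheral HEC 0 were higher and 6 lower, against 6.65% of all genes called, among them the kinase Prkcb (-0.58 ± 0.11, adjusted p = 0.00355) and the transcription factor Nfatc1 (-0.55 ± 0.09, adjusted p = 0.00111). That count was 3 without peripheral HEC array 2 or 3 or Peyer's patch HEC array 2, and 2 without peripheral HEC array 4 or Peyer's patch HEC array 1. Arrb1, which desensitises receptors, was higher in HEC by 1.43 ± 0.08 (adjusted p = 9.56e-11), 1 of 2 higher and 1 lower among 7 GPCR kinases and arrestins. Of 32 G protein subunits 6 were higher and 6 lower in HEC, a share close to the 33.9% of all genes called.

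Of 43 other class A receptors 1 was higher and 19 lower in HEC, against 33.9% of all genes called, led by the nucleotide receptor P2ry2 at -3.43 ± 0.14 (limma, adjusted p = 2.08e-12). F2rl3, the thrombin receptor PAR4, was lower in HEC by -1.05 ± 0.10 (adjusted p = 1.05e-07), and within HEC it was higher in Peyer's patches (1.39 ± 0.16, adjusted p = 1.76e-05) and mesenteric nodes (1.16 ± 0.14, adjusted p = 0.000109) than in peripheral nodes. Its peripheral HEC arrays read -0.76, -1.02, -0.99 and -1.10, and all other HEC arrays 0.04 to 0.68. In Peyer's patch against peripheral HEC 3 of the 43 were called, a share close to the 6.65% of all genes, with 1 without peripheral HEC array 1 or Peyer's patch HEC array 1 or 2. Without Peyer's patch HEC array 3, 13 were called, and 5300 of all genes. In mesenteric against peripheral HEC 3 were called, against 2.69% of all genes, and 1 without double-positive array 2.

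Few genes passed the test between the mesenteric gates, which has little power with 2 arrays in each. Of all 19938 genes 4, or 0.0201%, passed, all lower in double-positive cells, and 335 had an unadjusted p under 0.05. These 335 are a smaller share than the 0.05 that would pass if no gene differed. The low counts, that of the pathway genes below included, thus do not show that the gates are alike. That count holds Tacr1, for which nothing is read from it, since Tacr1 was chosen on this difference. The other genes were Cytl1, a secreted cytokine-like protein (-1.39 ± 0.14, limma adjusted p = 0.000287), Myof, a membrane repair protein (-1.65 ± 0.17, adjusted p = 0.000296), and Fbln2, a matrix protein (-1.29 ± 0.16, adjusted p = 0.00249). Without MAdCAM1+ array 4 the count was 17. Across genes, double-positive array 1 deviated from its group mean together with MAdCAM1+ array 3, and array 2 with array 4 (r = 0.566). With 2 arrays in each gate the deviations mirror each other, so the second pair and the crossed pairs (-0.566) follow from the first. The labels do not pair these arrays. The test leaves any pairing out, and with these apparent pairs as a term, chosen after seeing the data, 6 genes were called. Of the 234 pathway genes 0 were called by limma and 6 had an unadjusted p under 0.05. Tshr (-0.10 ± 0.38) and Chrm3 (0.19 ± 0.27) overlapped between the gates. Leaving out single mesenteric HEC arrays, which breaks those pairs, gave -0.67 to 0.46 for Tshr and -0.09 to 0.48 for Chrm3. Within the apparent pairs Tshr read 4.26 and 4.41 in one and 3.21 and 3.27 in the other, the double-positive array lower by a little in both. Of the 8 high endothelial markers 0 were called between the gates, where 0.0201% of all genes were called. Their mean value was slightly higher on both double-positive arrays (3.60 and 3.66) than on both MAdCAM1+ arrays (3.48 and 3.53).

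The members' values were set against each other over the arrays, as a description that follows from the group means and has no test. Over the 11 HEC arrays, which share their tissues and the normalization, Tshr and Chrm3 went together (Pearson r = 0.844), as did Adgrg6 and Rgs16 (r = 0.896), and each gene of the first pair opposed each of the second (r = -0.742 to -0.884). Tacr1 followed Adgrg6 more loosely (r = 0.648). With the 8 capillary arrays included, Tshr and Rgs16 remained opposed (r = -0.877), while the value of Tshr and Adgrg6 fell from -0.796 to -0.129.

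**Figure D4:**
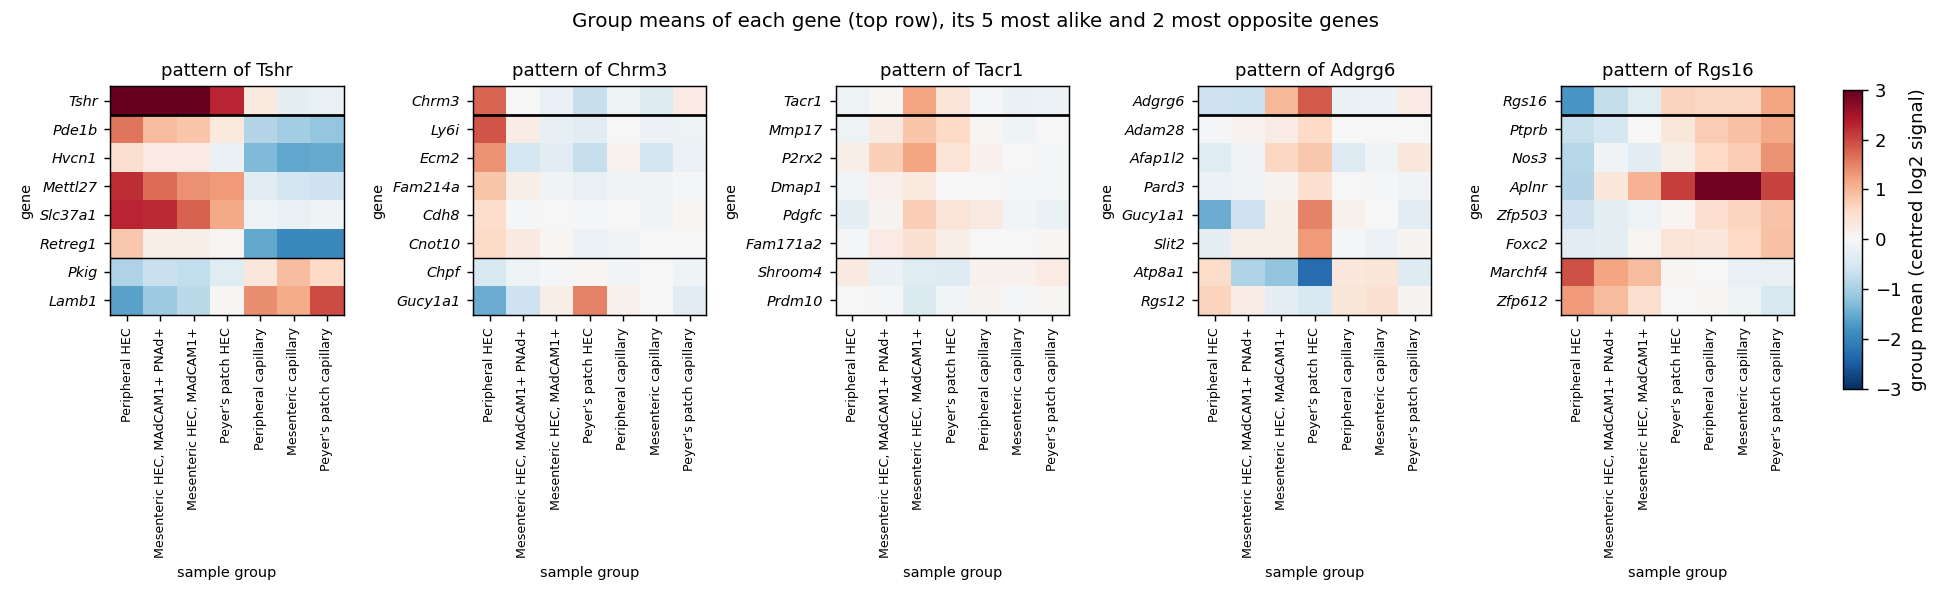
Group means (colour, centred log2 signal) of each member and of the genes whose arrays followed it most closely or most oppositely over 19 arrays (rows), in the 7 groups (columns). The Tshr block divides HEC from capillary cells, and the 5 genes most like each other member have their highest group mean in peripheral HEC for Chrm3, MAdCAM1+ cells for Tacr1 and Peyer's patch HEC for Adgrg6, and their lowest in peripheral HEC for Rgs16.

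For each member the 5 named genes with the highest and the 2 with the lowest Pearson correlation over the 19 arrays were taken. Those nearest to Tshr were Pde1b, a calcium-dependent phosphodiesterase (r = 0.984), the proton channel gene Hvcn1 (0.984), Mettl27 (0.979), Slc37a1 (0.977) and Retreg1 (0.975), and the most opposed were Lamb1 (-0.971) and Pkig, an inhibitor of protein kinase A (-0.957). For Tshr the HEC and capillary arrays form separate clusters, so the values within HEC are given beside those over all arrays. Within the 11 HEC arrays Lamb1 remained at -0.964 and Pde1b at 0.915.

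Chrm3 was followed by Ly6i (r = 0.929), Ecm2 (0.91), Fam214a (0.899), Cdh8 (0.885) and Cnot10 (0.882), and opposed by Gucy1a1 (-0.853), a subunit of the nitric oxide-sensitive guanylate cyclase, and Chpf (-0.84). Ly6i had the pattern of Chrm3 in peripheral HEC, with a group mean of 1.89 against 0.22 or less in the other 6 groups. Tacr1 was followed by Mmp17 (0.859), the ATP-gated channel gene P2rx2 (0.844), Dmap1 (0.828), the growth factor gene Pdgfc (0.813) and Fam171a2 (0.807), and opposed by Prdm10 (-0.825) and Shroom4 (-0.802). P2rx2 also had its highest group mean, 1.18, in MAdCAM1+ cells.

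Adgrg6 was followed by Adam28 (r = 0.876), Afap1l2 (0.865), Pard3 (0.865), Gucy1a1 (0.862) and Slit2 (0.858), a guidance ligand, and opposed by Rgs12 (-0.871) and Atp8a1 (-0.821). Gucy1a1, which opposed Chrm3, had group means of -1.50 in peripheral, -0.62 in double-positive, 0.19 in MAdCAM1+ and 1.50 in Peyer's patch HEC. Rgs16 was followed by Ptprb (0.919), Nos3 (0.918), the endothelial nitric oxide synthase, the apelin receptor gene Aplnr (0.914), Zfp503 (0.898) and Foxc2 (0.898), and opposed by Zfp612 (-0.965) and Marchf4 (-0.956). Aplnr followed Rgs16 within the HEC arrays too (r = 0.971), from -0.89 in peripheral to 2.07 in Peyer's patch HEC.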

How the data were processed

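The 5 members, the gene lists and the tests were chosen with earlier results of these data known. The submitters' processing notes name RMA and Partek without versions, and the deposited values are log2 signals from which a baseline had been subtracted for each probe set (range -4.09 to 6.13, with an exact 0 in 54.5% of probe sets), and that baseline is not given in the sources used here. RMA normalises arrays to each other by quantiles and understates large folds. Precision depends on the number of arrays.

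The platform annotation gave 1 gene symbol for 21789 of 28856 probe sets, several for 1621 and none for 5446. Of these 21698 were matched by Entrez identifier to a RefSeq gene table (GRCm38.p6), which changed 0 symbols. Probe sets of 1 gene were averaged (999 genes had more than 1), which left 19938 genes. Groups came from the sample titles. limma 3.58.1 in R 4.3.3 (lmFit, eBayes) fitted the 19 arrays together with a mean per group (7 groups), with 12 residual and 4.62 prior degrees of freedom. Mesenteric HEC are the mean of both gates. Two-sided p-values were adjusted for each comparison over all genes (Benjamini-Hochberg), and a call is an adjusted p under 0.05. Differences are on the log2 scale with the model's SE, and comparisons that share peripheral HEC are not independent.

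Genes were named by rule: the members, the correlated genes, up to 4 called genes with the largest difference for each of the 11 lists and each comparison, and paralogs. Cytl1, Myof and Fbln2 were named after their values were seen, since the count held few genes, and so were the array values of Bche, Mme, Lamb1, Rgs12, Rgs2, Pde7b, Adgrl4 and F2rl3. In a simulation of Peyer's patch against peripheral HEC (19938 genes), 95% of genes changed by a log2 of 1 and 100% of those changed by 2 were recovered, with 8 unchanged genes among 203 called. Its noise was independent and equally wide on every array. Array weights fitted to the real Peyer's patch HEC arrays 1 to 3 were unequal, at 4.35, 0.313 and 0.278. The simulated recovery thus does not carry over to the real comparison. Promoters were read from a RefSeq table and motifs searched on both strands in Python 3.11.15, and figures were drawn with matplotlib 3.10.9. Some listed genes are not reported here.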

Additional observations from a re-analysis of the deposited data

Results flagged for a closer look

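In peripheral HEC a single array stood apart from the other 3 for Rgs9, at -0.18, and for Rgs19, at 0.29 (gap over range 0.844 and 0.934, above Dixon's 95% value of 0.829, which chance passes in about 1 of 20 groups). The rule was applied to 50 genes in this group, the only one with 4 arrays. So few flags among 50 genes are no more than chance gives, and nothing is read from them.

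The difference between HEC and capillary cells had opposite signs in Peyer's patches and peripheral nodes for 2 members, with no overlap of arrays in either tissue. The difference of differences, Peyer's patches minus peripheral nodes, was -2.84 log2 for Chrm3 and 2.02 for Adgrg6, and it was not tested, because both genes were chosen for such patterns.

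For the pathway genes named in the text the same difference of differences was tested with limma, where 4.05% of all genes passed. These genes were partly named for large differences on the same arrays, so the number that passed gives no share for the pathways. Of all 234 pathway genes 23 passed. Among the named genes the results were as follows. It was positive for Chrm4 (0.67, adjusted p = 0.0313), Ache (0.94, adjusted p = 0.0168), Celsr1 (0.68, adjusted p = 0.0173), Rgs9 (0.89, adjusted p = 0.000803) and Rgs5 (1.39, adjusted p = 0.0232). It was negative for Chrm2 (-1.80, adjusted p = 0.00461), Bche (-1.32, adjusted p = 0.000613), Mme (-2.37, adjusted p = 0.000355), Ace (-1.91, adjusted p = 8.63e-08), Adgrl4 (-0.94, adjusted p = 0.00671), Adgre5 (-1.0, adjusted p = 0.00309), Prnp (-0.79, adjusted p = 0.034), Rgs12 (-0.84, adjusted p = 0.00059), Rgs3 (-0.53, adjusted p = 0.0126) and Pde7b (-0.80, adjusted p = 0.0492).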

How the results depend on the processing

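The members' differences moved by less than 1 SD in 941 recomputations and by more in 4, and of those larger than 1 SD 0 changed sign. Many of the 941 could not move. Leaving out an array of a group outside the comparison, choosing another probe set or fitting only the compared groups leaves a member's difference unchanged. The count is thus no measure of stability. Smaller differences, such as those of Chrm3 and Adgrg6 in mesenteric nodes, could still move by more than 1.5 times without 1 array. The larger moves were Tshr in peripheral nodes (5.01 without peripheral capillary arrays 1 and 2) and Rgs16, which in mesenteric HEC against capillary cells was -1.22 with the replicate number as a block and -1.24 after quantile normalization again, and between the gates -0.27 with the block. Of 67 calls of named pathway genes, 52 were kept under all alternatives and 0 reversed.

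Counts of called genes moved more. With each array left out in turn they ranged from 5827 to 7362 for HEC against capillary cells over the mean of tissues, 3272 to 5842 in peripheral nodes, 1791 to 3428 in mesenteric nodes (lowest without mesenteric capillary array 1) and 2943 to 4441 in Peyer's patches. The range was 712 to 5300 for Peyer's patch against peripheral HEC (858 without peripheral HEC array 4, 712, 790 and 5300 without Peyer's patch HEC arrays 1, 2 and 3) and 285 to 665 for mesenteric against peripheral HEC (285 without double-positive array 2, 324 without MAdCAM1+ array 4). It was 98 to 946 for Peyer's patch against mesenteric HEC (123 and 130 without those mesenteric arrays, 98 and 946 without Peyer's patch HEC arrays 1 and 3) and 3 to 17 for the gates. Pathway genes called ranged from 90 to 111, 16 to 69 and 12 to 17 for the mean of tissues, Peyer's patch and mesenteric comparisons. Array weights gave 7070 genes for Peyer's patch HEC against capillary cells, 7192 for Peyer's patch against peripheral, 1119 for mesenteric against peripheral and 2563 for Peyer's patch against mesenteric HEC, 9 for the gates, and 96 and 24 pathway genes in Peyer's patch and mesenteric against peripheral HEC. A fit of only the compared groups gave 743, 80 and 0 genes for Peyer's patch against peripheral, Peyer's patch against mesenteric HEC and the gates, and 20 pathway genes for the first. Keeping genes with a range of at least 1 gave 4032 for the mean of tissues, 3189 for peripheral nodes and 7 for the gates, and leaving out peripheral capillary arrays 1 and 2 gave 2655 for peripheral nodes. The causes were not tested.

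Deviations of same-numbered arrays from their group means had a median correlation of 0.0834 (-0.426 to 0.556, over 0.1 in 17 of 41 pairs). The numbers thus show no common pairing over all groups, and whether some of these arrays were processed together was not tested. The replicate block gave 153 genes for Peyer's patch against mesenteric HEC and 2 for the gates, and ended 4 of the 67 named calls. The apparent pairs of mesenteric HEC arrays as a term, added after seeing the data, gave 6 genes for the gates and ended 2 of the 67. A filter on dim probes needs signal levels and was not run. Centred values leave signal over background unknown for every gene.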
